A study of Mus musculus with 6 samples.

Results

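Genes named for the centrosome and the cilium were followed in mouse oocytes that had grown in culture or in the ovary. The members were all genes of the authors' deposited table whose symbol begins with Cep, Ift or Bbs and a digit, plus Pcnt, Cdk5rap2, Plk4, Sass6, Stil, Nin and Ninl. This gave 61 members among 10896 genes. Among them, Cep83os, is a non-coding RNA gene that lies beside Cep83 and was taken only for its symbol. Bbs1, Cep126 and Ift57, which the rule would take, were not analysed here.

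All oocytes came from (C57BL x CBA) F1 mice and were at the germinal vesicle (GV) stage, the arrested stage before meiosis resumes. Each group had 3 samples of 50 oocytes. In the in vitro group, follicles were freed with collagenase from ovaries of 2 to 5 females aged 10 to 12 days. They were then cultured on membrane inserts in MEM-alpha medium with 5% fetal bovine serum, insulin, transferrin, selenium and 0.01 µg/ml follicle stimulating hormone. In the in vivo group, oocytes were released by needle puncture from ovaries of females aged 7 to 11 weeks, into M2 medium with dbcAMP, a compound that holds oocytes in arrest. Culture, donor age and collection therefore cannot be told apart in any comparison below. Nothing in the labels says whether samples of a group came from separate animals or cultures, so p-values measure the spread between these samples only. A sample is bulk RNA, in which fewer cells of a type and less RNA per cell cannot be told apart.

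The centrosome is the main microtubule organising centre of most animal cells, and consists of centrioles inside a pericentriolar material that nucleates microtubules. A centriole can also dock at the cell surface and template a cilium, which is built and kept by intraflagellar transport (IFT) trains moving along its microtubules. The BBSome, a coat of Bardet-Biedl syndrome proteins, travels with these trains and carries membrane receptors. Mouse oocytes lose their centrioles before they are fully grown and form their meiotic spindle from many acentriolar centres of pericentriolar proteins. Granulosa cells of the follicle, in contrast, keep centrioles and can bear primary cilia.

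Values of 2 kinds are used. The first is the group mean of normalised reads from the authors' deposited table, which comes with a PPEE. PPEE is not spelled out there; it was taken to be the posterior probability of equal expression, and a value below 0.05 was counted as a call. Fold differences are ratios of these means, and log2 changes are the deposited log2 ratio turned to in vitro over in vivo. The second is the number of reads per library, which could be solved from group means up to 700 for 8458 genes and for 49 of the 61 members. These libraries held between 1043440 and 1570082 such reads. They are named A, B and C within each group, because nothing ties them to the sample numbers, and they are given as normalised reads, the reads divided by the size factor of the library. Differences between libraries were tested with limma voom, with p-values adjusted over all 8458 genes.

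All 15 oocyte markers were in the table, 3 of them called lower in vitro (Bmp15, Kit and Nlrp5), while 14 of 26 granulosa or cumulus cell markers had no row. The clearest of the others was Inhba, a subunit of inhibin and activin, at 66.2, 57.0 and 57.1 normalised reads in vitro and 0, 3.54 and 4.52 in vivo. Of the 12 granulosa or cumulus markers, 4 were called higher in vitro (Inhba, Inha, Hsd3b1 and Fshr) and 0 lower. Limma voom did not call Fshr (adjusted p = 0.0774). All marker counts here are to be read against the 8.31% of all genes called lower and 6.75% called higher by PPEE. The summed level of the 11 granulosa or cumulus markers with recovered reads was 459 to 578 normalised reads in the in vitro libraries. In the in vivo libraries it was 283 to 324. That sum leaves out Serpine2, whose means of 5350 in vitro and 5169 in vivo were too high to be solved. These means were far above the sum, and the authors' deposited table gave Serpine2 a PPEE of 0.988. Of 10 theca or stroma markers 0 had a row, and of 8 blood and endothelium markers 3 had one, of which 1 was called lower in vitro. This was Pecam1, an endothelial adhesion protein, 1.51-fold lower (PPEE 0.00378 according to the authors' deposited table). Kdr, an endothelial growth factor receptor, had 15.6, 10.4 and 22.3 normalised reads in vitro and 50.9, 62.0 and 53.1 in vivo, and limma voom called it lower (adjusted p = 0.0146). The summed level of Kdr and Cd68, the markers of this list with recovered reads, was 24.9 to 38.6 in vitro and 61.0 to 72.6 in vivo. Cd68 itself did not share the decrease, at 23.0, 14.5 and 4.96 normalised reads in vitro and 13.7, 10.6 and 7.91 in vivo, with overlapping groups. The other 8 granulosa or cumulus markers passed no PPEE call. Among them, Hsd17b1 lay higher in every in vitro library (11.0, 15.5 and 12.4 normalised reads against 5.66, 1.77 and 1.13 in vivo). Limma voom gave it an adjusted p of 0.0506. Nr5a2 lay lower in every in vitro library (59.7, 69.5 and 52.1 normalised reads against 72.0, 85.9 and 71.2 in vivo). The part of other cells in the members' levels was not tested.

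Most centrosome and cilium genes were not called different between the groups, and those that were called were nearly all lower in oocytes grown in vitro. By PPEE, 10 of 61 members were called lower in vitro and 1 higher. Over all genes of the table, 8.31% were called lower and 6.75% higher, while among the members the shares were 16.4% and 1.64%. The called decreases were Bbs2, Bbs9, Ift172, Ift80, Ift122, Cep72, Cep152, Cep41, Cdk5rap2 and Cep70, and the called increase was Cep170b. The median log2 change of the members was -0.19, against 0.02 over all genes, and 42 of 61 members (68.9%) lay below 0, against 48.9% of all genes. In 7 of the 10 called decreases the difference was under 2-fold.

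**Figure D1:**
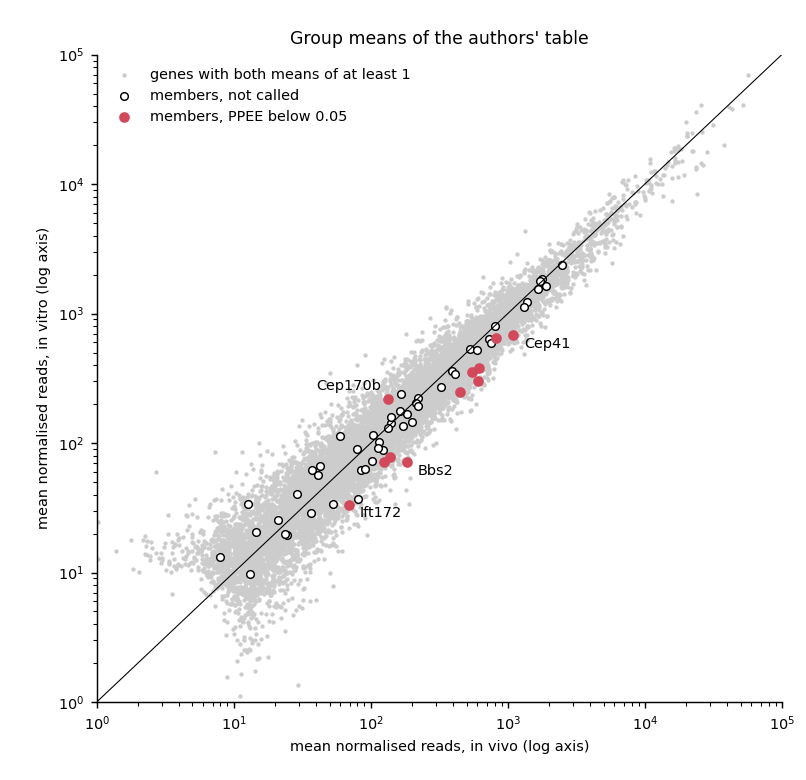
Mean normalised reads of each gene in vitro (vertical, log axis) against in vivo (horizontal, log axis), with 60 members as circles and the line marking equal means. The 10 members called lower in vitro lie below the line, and Cep170b alone among the called members lies above it.

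The recovered reads add the spread between libraries. They were solved from the same group means, so the direction of a change in them is no separate evidence. Limma voom called 8 of 49 members lower (16.3%) and 2 higher (4.08%) in vitro, against 4.89% and 5.49% of all genes tested. Of the 9 members that were called by PPEE and had recovered reads, 8 were also called by limma voom. The exception was Ift172, and Ift88 and Cep128 were called by limma voom but not by PPEE. In 12 of 49 members every in vitro library lay below every in vivo library, and in 5 every in vitro library lay above, against 16.0% and 18.2% of all genes tested. The median of the 49 members against the in vivo mean was, on the log2 scale, -0.07 in library A, -0.42 in B and -0.13 in C of the in vitro group, so library B lay lowest. Over all 8458 genes the same medians were 0.01, 0.05 and 0.01.

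These calls rest on 3 libraries a group and on which ones are used. Without in vitro library C or without in vivo library A, limma voom called 0 members in either direction, and at an unadjusted p below 0.05 it then found 11 and 10 lower and 3 and 2 higher. Without in vivo library B it called 1 lower (Bbs9) and 0 higher, with 10 and 3 at an unadjusted p below 0.05. In the limma voom fit with every library, 14 of 49 members had an unadjusted p below 0.05, as did 30.0% of all genes tested. The shares of all genes at this unadjusted threshold were not taken for the refits, so the members' counts there have no background. Without in vitro library B it called 5 lower and 1 higher, against 1.54% and 1.67% of all genes tested. Without in vitro library A it called 10 lower and 5 higher, against 10.4% and 15.6%. Without in vivo library C it called 7 lower and 1 higher, against 3.36% and 3.03%. The shares over all genes moved in the same way, down to 0.355% lower without in vitro library C and 0.166% higher without in vivo library A. All 10 called members kept their direction in each of these fits.

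**Figure D2:**
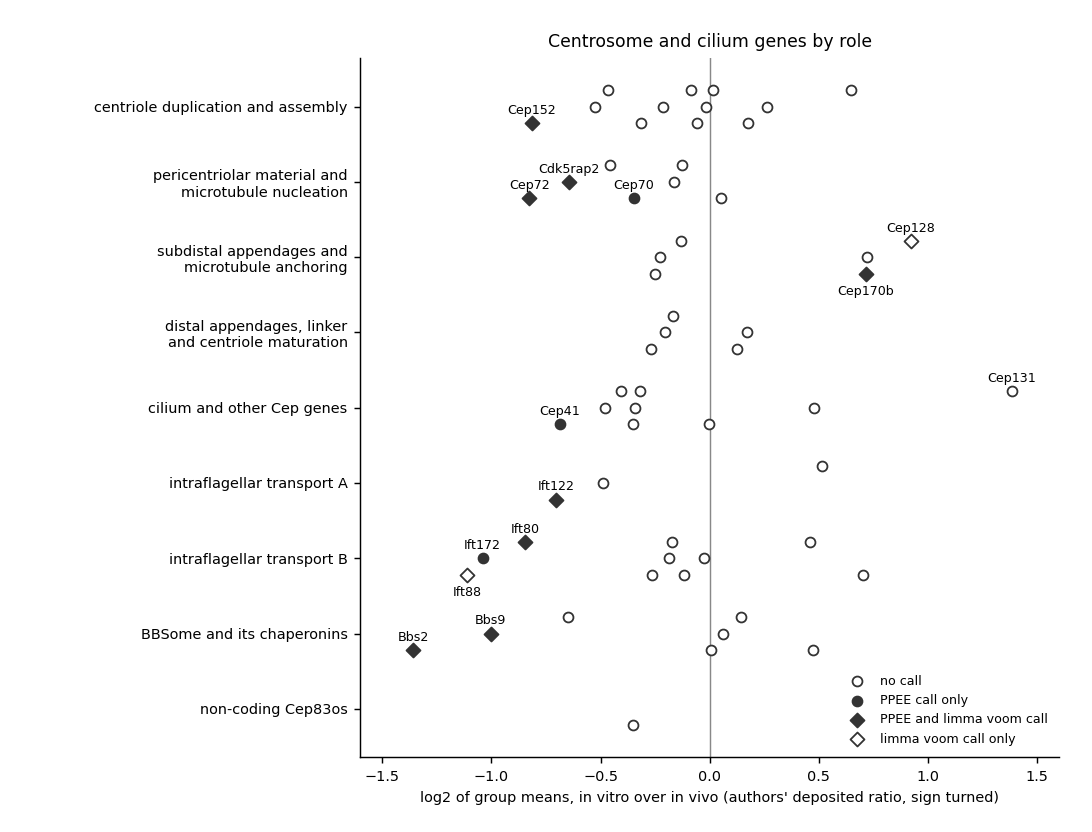
Log2 change of the group means of 60 members, in vitro over in vivo (horizontal), grouped by role (vertical). Filled symbols have a PPEE below 0.05 and diamonds were called by limma voom on recovered reads. Called members lie to the left of 0 except Cep170b and Cep128.

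The kinase and scaffold genes that start a new centriole were mostly not called, with Cep152 as the exception. Of 12 members for centriole duplication and assembly, 1 was called lower and 0 higher by PPEE, and their median log2 change was -0.07. Counts by role, here and below, are to be read against the 8.31% of all genes called lower and 6.75% called higher by PPEE. Plk4 (gene identifier 20873), the kinase that triggers duplication, had means of 2359 normalised reads in vitro and 2506 in vivo (PPEE 0.976, both from the authors' deposited table). Cep152 (gene identifier 99100), the scaffold that recruits Plk4, had 72.6, 69.5 and 72.0 normalised reads in vitro (libraries A to C in order, here and below) and 141, 131 and 106 in vivo. The 3 in vitro libraries were close to each other and all below the in vivo ones. Cep152 was 1.77-fold lower in vitro by the group means, and the authors' deposited table gave it a PPEE of 7.49e-08, and its limma voom log2 change was -0.82 ± 0.22 (SE, adjusted p = 0.0386).

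The other duplication genes with recovered reads were not called, and lay on either side of 0. Cep192, a scaffold that acts beside Cep152 and also in pericentriolar material, had 140, 143 and 154 normalised reads in vitro and 227, 220 and 157 in vivo. Its in vitro libraries all lay below the in vivo ones, the nearest pair by little, and limma voom gave an adjusted p of 0.138 (PPEE 0.0810). Stil, a partner of Plk4, had 79.0, 53.9 and 57.1 in vitro and 84.1, 101 and 89.2 in vivo, with an adjusted p of 0.171 by limma voom. Sass6, which forms the cartwheel at the base of the new centriole, had 91.0, 81.9 and 100.5 in vitro and 101.1, 129 and 111 in vivo, with an adjusted p of 0.344 by limma voom. In Stil and Sass6, too, the groups did not overlap. Cep63, a partner of Cep152, had 137, 163 and 174 in vitro and 139, 134 and 146 in vivo, and its groups overlapped. The 95% interval of its limma voom log2 change ran from -0.25 to 0.58. Cep135, a protein of the centriole wall, had 233, 145 and 233 in vitro and 196, 198 and 244 in vivo, with library B lowest in vitro, and its interval ran from -0.54 to 0.38.

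The other members of the duplication group did not pass either test. Cep120, which elongates centrioles, and Cep85, a partner of Stil, had means too high to be solved. For these the authors' deposited table lists a PPEE of 0.986 and 0.942. Cep44, which had 139, 142 and 145 normalised reads in vitro and 138, 136 and 148 in vivo, was among the most even members. Cep76, which restrains centriole reduplication, and Cep97, which restrains cilium growth, had means of 66.7 and 25.5 normalised reads in vitro and 42.3 and 21.2 in vivo according to the authors' deposited table. PPEE stood at 0.644 and 0.841, and the libraries of both overlapped between groups.

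Within the pericentriolar material, Cdk5rap2 and 2 further genes were called lower in vitro while Pcnt was not. Of 7 members of this group, 3 were called lower and 0 higher by PPEE, with a median log2 change of -0.35. Cdk5rap2 (gene identifier 214444), which binds and activates the gamma-tubulin ring, had 372, 349 and 333 normalised reads in vitro and 578, 571 and 501 in vivo. Every in vitro library lay well below every in vivo one. The group means differed 1.57-fold and the authors' deposited table lists its PPEE as 0, and the limma voom log2 change was -0.65 ± 0.15 (SE, adjusted p = 0.0196). Pcnt, or pericentrin, the large scaffold of pericentriolar material and of the oocyte's acentriolar centres, had means of 1780 in vitro and 1718 in vivo (PPEE 0.981, both from the authors' deposited table).

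Cep72 (gene identifier 74470), a satellite protein that helps recruit the gamma-tubulin ring, had 91.9, 48.7 and 93.1 normalised reads in vitro and 140, 135 and 141 in vivo. The in vivo libraries were nearly equal, and in vitro library B stood apart below the other in vitro ones. Cep72 was 1.78-fold lower in vitro by group means (PPEE 2.72e-05 in the authors' deposited table), with a limma voom log2 change of -0.89 ± 0.26 (SE, adjusted p = 0.0449) that became -0.58 without in vitro library B (adjusted p = 0.134). Cep70, which binds gamma-tubulin, had means of 646 in vitro and 823 in vivo, 1.27-fold lower, and the authors' deposited table gave it a PPEE of 0.000815. Its in vivo mean was too high for reads to be solved. Reads shared between close relatives, such as Cep57 and Cep57l1 or Cep170 and Cep170b, may have been split in ways the sources used here do not give. Cep68, Cep57 and Cep57l1 were not called, and the authors' deposited table put their PPEE at 0.824, 0.949 and 0.686.

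Both members that limma voom called higher were placed in the group of the subdistal appendages, the projections of the mother centriole that anchor microtubules. Of 6 members in this group, 1 was called higher and 0 lower by PPEE, and the median log2 change was 0.29. Cep170b (gene identifier 217882), a relative of the appendage protein Cep170, had 171, 244 and 246 normalised reads in vitro and 120, 127 and 155 in vivo. Its groups did not overlap, though in vitro library A lay nearer to the in vivo values than to libraries B and C. Cep170b was 1.64-fold higher in vitro (PPEE 0.00635 in the authors' deposited table), with a limma voom log2 change of 0.70 ± 0.21 (SE) and an adjusted p of 0.0496. Its limma voom call was kept in only 3 of 9 alternative fits, with an adjusted p from 0.00353 to 0.172. It was lost, for 1, when library sizes were taken from sums of reads (adjusted p = 0.0522). Cep170 itself had 180, 138 and 189 in vitro and 184, 154 and 217 in vivo, and its limma voom interval ran from -0.57 to 0.32.

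Cep128 (gene identifier 75216), which the appendages need for their assembly, had 115, 103 and 122 normalised reads in vitro and 56.6, 54.0 and 67.8 in vivo. Every in vitro library was well above every in vivo one. The group means differed 1.90-fold and limma voom gave a log2 change of 0.93 ± 0.23 (SE, adjusted p = 0.0274), yet its PPEE is 1 to 6 decimals in the authors' deposited table. Cep350, a large protein that anchors microtubules at centrosomes, had 61.6, 59.1 and 65.8 in vitro and 26.7, 54.0 and 31.6 in vivo, with in vivo library B high. It passed neither test (PPEE 0.0789, adjusted p = 0.108 by limma voom). Nin, or ninein, had means of 1125 in vitro and 1319 in vivo, and Ninl, its relative, 19.7 and 23.5, and the authors' deposited table put their PPEE at 0.494 and 0.888.

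Genes of the distal appendages, which dock the centriole to the membrane, and of the linker between centrioles were not called. Of the 5 members, 0 were called in either direction by PPEE, and limma voom called 0 of the 4 with recovered reads. These counts of few members stand beside 15.1% of all genes called by PPEE and 10.4% by limma voom. Cep164, a distal appendage protein, had means of 1637 in vitro and 1888 in vivo according to the authors' deposited table, and Cep89 and Cep83 had 342 and 178 in vitro and 413 and 163 in vivo. Cep89 was uneven in vitro, at 499, 235 and 293 normalised reads, against 430, 393 and 417 in vivo, and Cep83 was uneven in the other order, at 104, 238 and 191 in vitro against 172, 160 and 156 in vivo. Without in vitro library A, limma voom called Cep89 lower. Cep83os had 16.5, 38.4 and 31.0 in vitro and 11.3, 54.9 and 44.0 in vivo, and library A was lowest of its group for both Cep83 and Cep83os in vitro. Cep250, the linker protein, and Cep78 overlapped between groups, with means of 102 and 89.2 in vitro and 114 and 79.3 in vivo according to the authors' deposited table.

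Among the remaining Cep genes, Cep41 was the one called. Cep41 (gene identifier 83922), a protein of the cilium needed for tubulin glutamylation, had means of 678 in vitro and 1091 in vivo according to the authors' deposited table. It was 1.61-fold lower in vitro with a PPEE listed as 0, and its in vivo mean was too high for reads to be solved. Among the 53 members with a promoter sequence, Cep41 was the 1 that held a match to the X-box, the element bound by RFX factors that drive many cilium genes. The stretch is shown for that reason. It is chr6:30693806-30693940 of GRCm38.p6, minus strand, from RefSeq, with the X-box in capitals, 131 to 117 bases before the gene start.

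Cep41: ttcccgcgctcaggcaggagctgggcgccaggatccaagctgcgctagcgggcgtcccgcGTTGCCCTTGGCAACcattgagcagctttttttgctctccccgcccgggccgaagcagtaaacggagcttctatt

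Both strands of the 300 bases around each gene start, 250 before and 50 after, were searched. Of 53 members with such a sequence, 1 held a match, and of 27025 genes 0.159% did. A match describes the letters only.

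Cep131 showed the largest rise of all members by group means, but on uneven libraries. Cep131 (gene identifier 12009), a protein of centriolar satellites also known as Azi1, had 16.5, 60.1 and 24.8 normalised reads in vitro and 12.1, 13.3 and 12.4 in vivo. In vitro library B stood far above the others, and the groups did not overlap. Its means differed 2.68-fold, and the authors' deposited table gave it a PPEE of 0.425. The limma voom log2 change was 1.17 ± 0.51 (SE, adjusted p = 0.141), and it was 0.63 without in vitro library B (adjusted p = 0.414). Without in vitro library A it was 1.63 and was called (adjusted p = 0.0189). Cep290, a gatekeeper of the ciliary transition zone, had 67.1, 60.1 and 90.6 in vitro and 107, 114 and 83.6 in vivo, with an adjusted p of 0.175. Cep55, the midbody protein of the last step of cell division, was even, at 529, 469 and 602 in vitro and 489, 526 and 586 in vivo. Its limma voom log2 change had a 95% interval from -0.32 to 0.32. Cep112, Cep162, Cep19, Cep85l and Cep95 had PPEE between 0.187 and 1 in the authors' deposited table, and none was called.

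**Figure D3:**
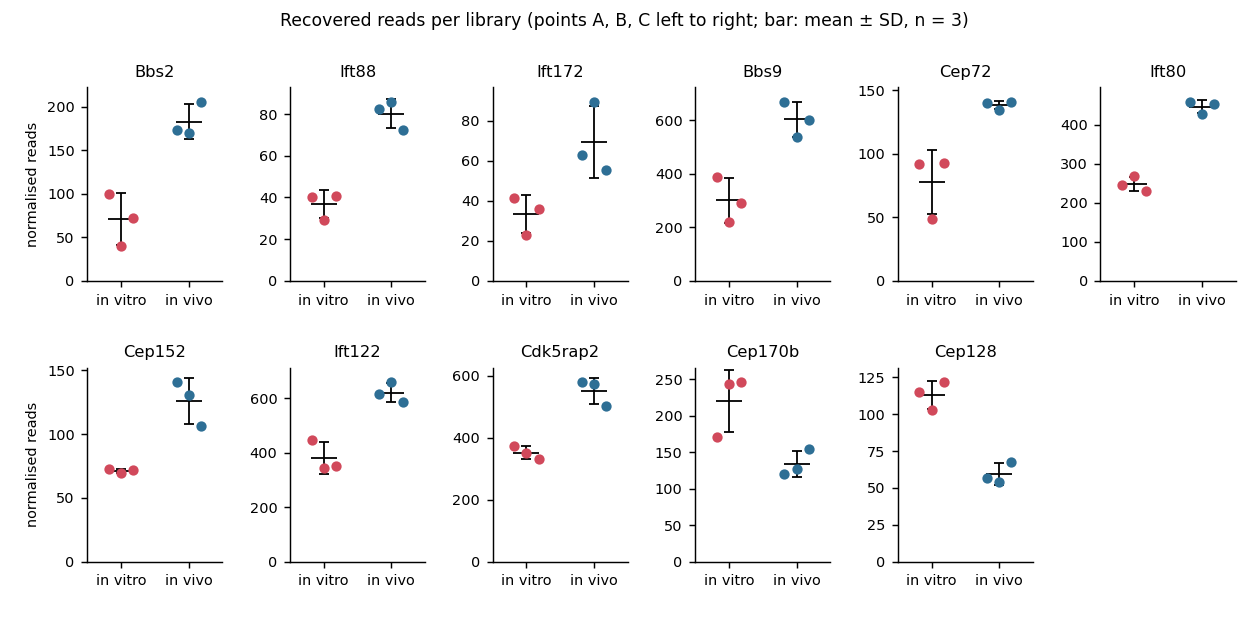
Normalised reads of each library (points, A to C from left to right) with mean and SD over 3 libraries (bars), for the 11 members with recovered reads that were called by PPEE or limma voom. In each panel the groups do not overlap, and only Cep170b and Cep128 are higher in vitro.

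Intraflagellar transport genes held some of the largest decreases in vitro. Of 3 members of complex A, which returns cargo to the cell body, 1 was called lower and 0 higher by PPEE. Ift122 (gene identifier 81896), a core subunit of complex A, had 448, 344 and 352 normalised reads in vitro and 618, 659 and 587 in vivo. All in vitro libraries lay below all in vivo ones. It was 1.63-fold lower (PPEE 4.12e-11 in the authors' deposited table), with a limma voom log2 change of -0.71 ± 0.15 (SE, adjusted p = 0.0179). Ift140, another core subunit, had 111, 80.9 and 70.7 in vitro and 90.6, 179 and 101 in vivo, with in vivo library B high and overlapping groups. Ift43, a small subunit, had 182, 332 and 201 in vitro and 184, 182 and 134 in vivo, with in vitro library B high.

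Of 10 members of complex B, which carries cargo toward the tip, 2 were called lower and 0 higher by PPEE, with a median log2 change of -0.18. Ift80 (gene identifier 68259), a peripheral subunit, had 246, 268 and 231 normalised reads in vitro and 459, 428 and 453 in vivo. Both groups were tight and far apart. Ift80 was 1.80-fold lower and the authors' deposited table lists its PPEE as 0, and limma voom gave -0.84 ± 0.15 (SE, adjusted p = 0.0117). Ift172 (gene identifier 67661), the subunit that links to the return journey at the tip, had 41.4, 22.8 and 36.0 in vitro and 63.1, 89.5 and 55.3 in vivo. Its groups did not overlap and its means differed 2.08-fold (PPEE 0.00897 in the authors' deposited table), but limma voom missed the threshold (log2 change -1.06 ± 0.32, SE, adjusted p = 0.0512).

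Ift88 (gene identifier 21821), the subunit whose loss removes cilia in mice, had 40.4, 29.0 and 40.9 normalised reads in vitro and 82.5, 85.9 and 72.3 in vivo. Every in vitro library was far below every in vivo one. Its means differed 2.18-fold and limma voom gave -1.14 ± 0.27 (SE, adjusted p = 0.0243), while the authors' deposited table lists a PPEE of 1. The other complex B genes were not called. Ift46, the most abundant, had means of 1536 in vitro and 1667 in vivo, and Ift81, which binds tubulin with Ift74, had 527 and 601. Ift52 and Ift74 had means of 270 and 195 in vitro and 324 and 219 in vivo according to the authors' deposited table. Ift22, with 118, 130 and 145 normalised reads in vitro and 145, 125 and 130 in vivo, had a limma voom interval from -0.47 to 0.39. Ift20, which also works at the Golgi, and Ift27 had higher means in vitro (56.8 against 41.1 and 13.2 against 7.91 in the authors' deposited table), and neither was called.

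The BBSome held the largest decrease of all members, in Bbs2, beside subunits that barely differed. Of 7 Bbs genes, 2 were called lower and 0 higher by PPEE, and the median log2 change was 0.00. Bbs2 (gene identifier 67378), a subunit of the BBSome core, had 100.2, 40.4 and 72.0 normalised reads in vitro and 173, 169 and 206 in vivo. The in vitro libraries were spread, with library B lowest, and all lay below the in vivo ones. Bbs2 was 2.58-fold lower (PPEE 5.30e-09 in the authors' deposited table), with a limma voom log2 change of -1.43 ± 0.28 (SE, adjusted p = 0.0146) that was -1.06 without in vitro library B.

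Bbs9 (gene identifier 319845), which binds Bbs2 in that core, had 388, 222 and 293 normalised reads in vitro and 670, 539 and 602 in vivo. Library B was again the lowest in vitro, and the groups did not overlap. Bbs9 was 2.01-fold lower (PPEE 8.30e-07 in the authors' deposited table), with -1.03 ± 0.19 by limma voom (SE, adjusted p = 0.0122). Bbs7, a further core subunit, had 127, 109.9 and 110.4 in vitro and 118, 96.5 and 99.4 in vivo, with a limma voom interval from -0.30 to 0.60. Bbs4 had means of 1842 and 1767 and Bbs5 of 222.3 and 221.6, in vitro and in vivo, and the authors' deposited table put their PPEE at 0.964 and 0.998. Bbs10 and Bbs12, chaperonin-like proteins that assemble the BBSome, had PPEE of 0.501 and 0.763 there. Bbs10 had 21.1, 33.2 and 47.1 in vitro and 67.1, 35.4 and 57.6 in vivo, and Bbs12 had 41.4, 24.9 and 54.6 against 17.8, 24.8 and 44.0, and both overlapped.

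The levels of the members, compared per kilobase of gene length, spanned a wide range. Bbs4 was the highest, at 725 mean normalised reads per kb in vitro and 695 in vivo, followed by Plk4 at 661 and 703. Cep57l1 (561 and 628), Ift46 (460 and 500) and Cep164 (297 and 343 mean normalised reads per kb) came next, and Bbs4 and Plk4 change places between the groups. These 5 were not called, and 4 of them were in the top 10% of all genes. Cep112 was the lowest on the average of both groups, at 2.76 reads per kb in vitro and 3.72 in vivo. The median member stood at 44.5 reads per kb in vitro and 51.3 in vivo, against 47.6 and 45.7 over all genes, so as a set the members were neither rare nor abundant. Pcnt (187 and 180) was well above Cdk5rap2 (62.7 and 98.2) and Cep192 (17.9 and 24.8 mean normalised reads per kb). Within the BBSome, Bbs4 stood above Bbs5 (157 and 156), Bbs9 (88.3 and 177), Bbs7 (44.5 and 40.3) and Bbs2 (23.8 and 61.4), so its subunits were far from equal in RNA level. Among duplication genes, Plk4 stood far above Sass6 (21.5 and 26.8), Cep152 (12.4 and 21.8) and Stil (11.9 and 17.1 reads per kb). The order is that of group means, and neighbours in it were not tested.

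**Figure D4:**
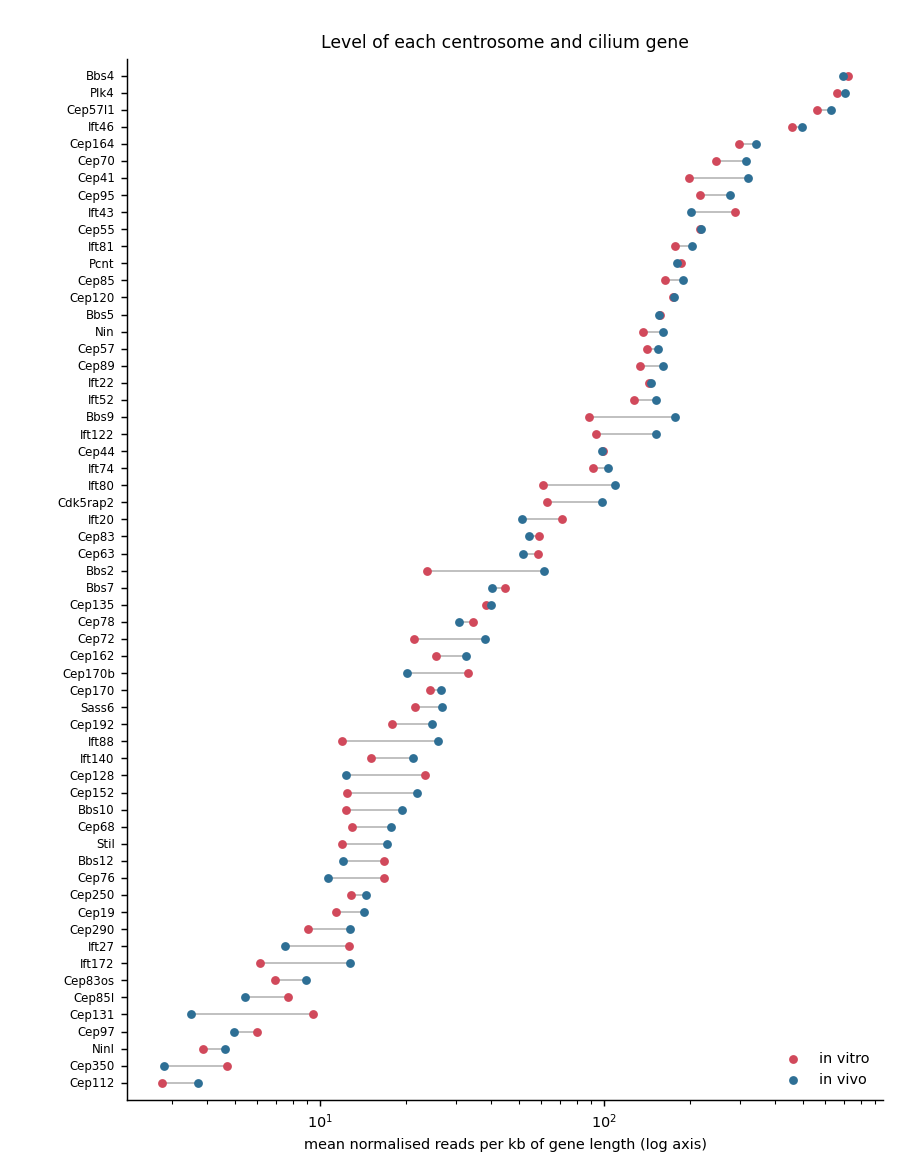
Mean normalised reads per kb of gene length (horizontal, log axis) of 60 members, ordered by the average of both groups, with in vitro and in vivo joined by a line. Bbs4 and Plk4 lead and Cep112 has the lowest average, and the widest gaps are those of Bbs2, Ift88, Ift172 and Cep131.

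Ift88 and Cep128, called by limma voom alone, shared a PPEE of 1 with other genes. A PPEE of 1, to 6 decimals, was listed for 10 members, among them Ift88 and Cep128, and for 1653 genes of the table. For recovered genes at this PPEE, the variance between libraries divided by the mean was 0.922 in the median, against 4.61 for all other recovered genes. It was 0.817 for Ift88 and 0.845 for Cep128. Limma voom called 65 of the 1519 recovered genes with a PPEE of 1 (4.28%), and 11.7% of the others. The other 8 members at this PPEE were Bbs7, Cep112, Cep44, Cep63, Cep78, Cep85l, Ift22 and Ift27, and limma voom called none of them.

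Longer genes tended to be lower in vitro, among the members and in the whole table. Spearman's rho of the log2 change with gene length was -0.25 over the 61 members and -0.16 over all 10896 genes, as a description across genes of the same libraries. The median member was 3516 bases long, against 2847 for all genes. The part of length in the members' decrease was not tested.

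Further genes of these pathways were taken from lists that share no gene with the members. These lists, here and below, are to be read against the 8.31% of all genes called lower and 6.75% called higher by PPEE. By limma voom the shares were 4.89% lower and 5.49% higher. Of 6 other IFT subunits in the table, 1 was called lower and 0 higher by PPEE, with a median log2 change of -0.20. This was Wdr19, a core subunit of complex A like Ift122, with 146, 75.7 and 85.6 normalised reads in vitro and 213, 231 and 233 in vivo (2.20-fold lower, adjusted p = 0.0149 by limma voom). Of 8 ciliary motor genes, 1 was called lower, Dync2h1, the heavy chain of the return motor, with 55.1, 39.4 and 54.6 in vitro and 101, 99.2 and 68.9 in vivo. Its adjusted p was 0.0568 by limma voom. Of 9 other BBSome genes and partners, 0 were called by PPEE and 0 by limma voom, and at the transition zone 2 of 23 were called, both higher in vitro. These were Ofd1, at 1.59-fold, and Iqcb1, at 1.26-fold higher in the authors' deposited table. Limma voom called Ofd1 (adjusted p = 0.0343) but not Iqcb1 (adjusted p = 0.187).

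Genes of spindle poles and centrioles without a Cep name made up 2 further lists, to be read against the 8.31% of all genes called lower by PPEE and the 4.89% by limma voom. Of 19 gamma-tubulin ring and augmin genes, which nucleate microtubules at poles and along spindles, 7 were called lower and 1 higher by PPEE, with a median log2 change of -0.49, and limma voom called 3 lower and 1 higher of the 14 with recovered reads. Tubg2, a gamma-tubulin, was 1.94-fold lower by group means, from 1176 in vivo to 607 in vitro. Haus5, an augmin subunit, had 333, 216 and 261 normalised reads in vitro and 533, 452 and 513 in vivo, and Haus8, another, had 289, 200.1 and 211 in vitro and 435, 385 and 391 in vivo. Also called lower were Mzt1, Haus1, Tubgcp3 and Akap9, at 1.46-fold, 1.65-fold, 1.76-fold and 1.32-fold in the authors' deposited table, and Haus7, an augmin subunit, was 1.59-fold higher. Limma voom also called Mzt1 lower and Haus7 higher, but not Haus1 (adjusted p = 0.0554), Tubgcp3 (0.0944) or Akap9 (0.136). Of 24 centriole and appendage genes under other names, 5 were called lower and 0 higher by PPEE, and limma voom called 1 lower (Spice1) and 0 higher of the 17 with recovered reads. The PPEE calls were Rttn, Spice1, Cntrl, Odf2 and Cenpj, at 2.04-fold, 1.64-fold, 1.47-fold, 1.46-fold and 1.33-fold lower by the means of the authors' deposited table.

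Of 9 genes for RFX factors and Hedgehog signalling, a pathway that runs through cilia, 1 was called higher and 1 lower by PPEE. Rfx5 was 2.03-fold higher and Rfx4 2.01-fold lower in vitro by the means of the authors' deposited table. Limma voom called Rfx5 and, at a PPEE of 1, Gli2, a Hedgehog effector with 45.0, 49.8 and 32.3 normalised reads in vitro and 21.8, 15.9 and 18.1 in vivo (adjusted p = 0.0476). Gli2 was named after its values were seen. Smo, Ptch1 and Gli1 were not analysed here. A further 3 genes that now carry a Cep symbol stood in the table under older ones and were not members: 5830418K08Rik (Cep295), Fopnl (Cep20) and Fgfr1op (Cep43), and the authors' deposited table put their PPEE at 0.880, 1 and 0.414.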

How the data were processed

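RNA of 6 samples of 50 oocytes was sequenced, after cDNA synthesis and amplification from 10 ng of total RNA with a SMARTer low input kit, per the labels' protocols. The submitters' processing notes name BWA and build mm9, and the counting and normalisation are not given in the sources used here. In the authors' deposited table the signal is a group's mean normalised reads, beside a log2 ratio, a PPEE and a gene length, per the file headers. The deposited log2 ratio is reproduced by adding 0.599 to both means. Of the gene identifiers, 10875 were found in RefSeq (GRCm38.p6). RefSeq was used for names and for the promoter sequences searched, of which 1 is printed.

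Each library adds whole multiples of its own step to the mean of 3 libraries. Steps were found from low means, and means up to 700 were solved to their 10 significant digits. A single solution was found for 95.6% of these means in vitro and 95.8% in vivo, of which 0.354% and 0.448% are expected to be false, from means shifted at random (1.60% and 2.40% for means of 400 to 700). The resulting size factors run from 0.806 to 1.09 (in vitro) and from 0.885 to 1.24 (in vivo). Limma voom 3.58.1 (R 4.3.3), whose library sizes followed the size factors, gave 2-sided tests with Benjamini-Hochberg adjustment. Both steps were first tested on simulated data. Alternatives were other PPEE thresholds, a 1.5-fold minimum, other offsets, low value filters, centring, library sizes from sums of reads, limma-trend and each library left out in turn.

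The members, role groups and gene lists were chosen with earlier results of these data known. Named were all members called by PPEE, those at least 2-fold apart, the 5 highest per kb and 11 centriole assembly and pericentriolar genes, and the rest for completeness of a role group. The values of 1 member are not reported here. Reads without molecular identifiers are not independent molecules.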

Additional observations from a re-analysis of the deposited data

How the results depend on the processing

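The count of members called lower by PPEE (10) ranged from 9 to 11 over 4 alternatives: a PPEE below 0.01 or 0.1, at least a 1.5-fold difference, and an average of both means of at least 10. The count called higher (1) was 2 at a PPEE below 0.1. The median log2 change of the members (-0.19) stayed between -0.20 and -0.19 with no offset, offsets of 1 and 5, the low mean filter and centring on all genes. The limma voom counts were 8 lower and 2 higher, and higher calls fell to 1 with library sizes from sums of reads. Leaving out 1 library at a time gave 0 to 10 lower and 0 to 5 higher calls. The shares over all genes tested then ran from 0.355% to 10.4% lower and from 0.166% to 15.6% higher. For named members, limma voom calls were lost in 36 and gained in 4 of 162 single refits, none with a called change of sign. Fits without 1 in vivo or in vitro library have 2 libraries in that group, and the cause of the lost calls was not tested. No paired analysis was possible because the table gives group means and recovered libraries carry no replicate number. Reads per library could not be solved for the 12 members with a mean above 700, which include Cep41, Cep70, Plk4 and Pcnt.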
